A study of Mus musculus with 41 samples.

Results

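Collagens are the triple-helical proteins of the extracellular matrix, and the genes described here are the 38 collagen genes other than those of the cartilage types II, IX and XI. They were every row of the 4 count tables whose symbol reads Col, a number, a and a number, after Col2a1, Col9a1 to Col9a3, Col11a1 and Col11a2 were left out. That makes 38 of 44 collagen rows, of 24371 genes in each table. The 38 were set in 3 groups: 8 fibrillar collagens (types I, III, V, XXIV and XXVII), 9 basement membrane collagens (types IV, VII, XV and XVIII) and 21 others, such as the beaded filament type VI and the transmembrane type XIII.

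Fibrillar collagens assemble into the cross-banded fibres that give tissue its tensile strength, with type V nucleating fibres of types I and III. Type IV chains form the sheet-like network of basement membranes, on which epithelium and endothelium rest. The chains α1 and α2 are found in most basement membranes, and α3 to α6 in restricted ones, including those of lung epithelium and kidney glomerulus. In the fetal lung near birth, thinning of the mesenchyme between airspaces and capillaries accompanies maturation, and glucocorticoids are known to promote it.

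The samples came from fetal mouse lung at E18.5, in 11 bulk libraries and 26 single cells. In the first set, pregnant dams carrying Twist2Cre;Rosa26mT/mG and Rosa26mT/mG pups received 1 mg/kg dexamethasone, a synthetic glucocorticoid, or saline at E18.5, and lungs were taken 2 hours later. The Cre-carrying pups' lungs were pooled by genotype and their GFP+ tdTomato- cells sorted, giving 4 dexamethasone and 2 saline pools. Both groups were therefore gated for cells in which Twist2Cre had recombined the reporter. In the second set, 2 libraries of CD106+ and 2 of CD106- lung cells at E18.5, with no treatment in their labels, stood beside 1 CD106+ library labelled 1 mg/kg dexamethasone, for which no time after injection is given. CD106 is the adhesion protein encoded by Vcam1; the sources used here do not give the strain or the sort of these RNA fractions. In the third, 15 single cells after 2 mg/kg dexamethasone and 11 after saline came from wild type C57Bl6/J pups, taken 24 hours after injection of the dams at E17.5. Another 4 chromatin accessibility samples were not analysed here.

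Levels are given as CPM, a gene's counts scaled to a fixed total per library. They are not corrected for transcript length, so they compare libraries for 1 gene and not genes with each other. Errors are SD unless named otherwise. No label ties the pools or fractions to different litters; the p-values therefore rest on the spread among these libraries alone, and that spread may be technical. In bulk libraries fewer cells of a type and less RNA per cell cannot be told apart.

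The type IV genes lie as neighbouring pairs that are read in opposite directions, and the start regions of those on which the results turn are printed here. Sequences and positions are from RefSeq for GRCm38.p6 (31 of 38 genes had a start window), written 5′ to 3′. Capitals mark a GC box, GGGCGG on either strand, or a CCAAT box, CCAAT on either strand. The transcripts of Col4a1 and Col4a2 overlap at their starts by 22 bases at chr8:11312805-11312826 (plus strand), which hold 1 GC box. The bases before the start of Col4a6 lie at chrX:141474077-141474326 (minus strand) and hold 1 GC box. The bases printed for Col4a5 lie at chrX:141475169-141475369 (plus strand), directly before the first annotated base of the gene, and hold 1 CCAAT box. Its start window runs on to the start site at 141475419 and beyond, and the bases of it that are not printed hold 1 GC box. The starts of Col4a6 and Col4a5 have 1342 bases between them.
Col4a1-Col4a2 shared start: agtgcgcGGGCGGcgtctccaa
Col4a6 promoter: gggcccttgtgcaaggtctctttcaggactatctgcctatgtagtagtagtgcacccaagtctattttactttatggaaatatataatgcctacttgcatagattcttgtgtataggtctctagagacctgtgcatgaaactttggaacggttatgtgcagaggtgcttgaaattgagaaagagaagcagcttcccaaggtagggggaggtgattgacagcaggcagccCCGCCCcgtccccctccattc
Col4a5 promoter: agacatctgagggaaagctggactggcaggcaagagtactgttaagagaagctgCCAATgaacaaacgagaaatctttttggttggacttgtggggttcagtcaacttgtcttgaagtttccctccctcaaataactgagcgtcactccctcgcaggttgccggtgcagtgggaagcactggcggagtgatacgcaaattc
In windows of 300 bases around the start, from 250 before it, a GC box was found in 20 of 33 collagen windows (60.6%) and in 35.7% of 32851 windows of all genes. A CCAAT box was found in 11 collagen windows (33.3%) against 37.4%, and TATAAA in 4 (12.1%) against 13.6%. All motifs were searched on both strands. The full palindromic glucocorticoid response element was in 0 collagen windows and in 3 of all (0.00913%), which says only that its letters are not in these windows.

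The bulk libraries held 1670896 to 7133941 counts each. The sorted mesenchyme carried 6 of its 7 fixed marker genes, while Twist2 itself stood at 0 to 0.901 CPM, and the summed endothelial and epithelial markers reached at most 140 and 175 CPM there. Erythroid markers summed to 1710 and 315 CPM in the saline pools and 300 to 799 CPM in the dexamethasone pools. The CD106 gene Vcam1 read 551 and 687 CPM with the CD106+ label, 1.35 and 3.00 CPM with the CD106- label and 268 CPM in the treated CD106+ library. That treated library stood apart from the untreated CD106+ libraries: its 6 endothelial markers summed to 2303 CPM against 92.8 and 116 CPM, with Pecam1 at 508 against 22.1 and 16.54 CPM and Kdr at 238 against 11.8 and 12.9 CPM. The leukocyte marker Ptprc stood at 12.9 against 0 and 0.280 CPM. The mesenchyme pools differed in sex genes by treatment. The X-inactivation RNA Xist stood at 33133 and 20879.6 CPM in saline and 374, 11111, 12.6 and 6.59 CPM under dexamethasone. The Y-linked Ddx3y stood at 1.20 and 0 CPM in saline and 106, 74.4, 131 and 174 CPM under dexamethasone. Neither gene overlapped between the groups, so sex cannot be told apart from dexamethasone in any mesenchyme comparison here. Of 5 known glucocorticoid-induced genes, all 5 rose in treated mesenchyme (edgeR) and all 5 stood at least 2-fold higher in the treated CD106+ library.

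Collagen RNA took its largest share of counts in the sorted mesenchyme, a description across tables that were counted and deposited separately. The 38 genes together held 1.66 to 1.83% of counts in the 4 dexamethasone pools and 1.71 and 1.99% in the saline pools. They held 0.705 and 1.07% in the CD106+ libraries, 0.759% in the treated CD106+ library and 0.252 and 0.277% in the CD106- libraries. Fibrillar and basement membrane sums lay in opposite directions between treated and saline mesenchyme. Fibrillar collagens summed to 9598 and 12042 CPM in saline and to 7947, 8602, 9289 and 8191 CPM under dexamethasone, every treated pool lying below both saline pools. Basement membrane collagens summed to 2496 and 2044 CPM in saline and to 4058, 3063, 2963 and 3254 CPM under dexamethasone, every treated pool lying above. The fibrillar sum over the basement membrane sum was accordingly 3.85 and 5.89 in saline and 1.96 to 3.14 under dexamethasone. It was 4.22 and 5.55 in CD106+ cells, 2.11 in the treated CD106+ library and 0.719 and 0.879 in CD106- cells. In mesenchyme and the treated CD106+ library, Col4a1 and Col4a2 made up most of the basement membrane sum. They averaged 1635 and 1476 CPM, of a mean sum of 3335 CPM, in treated mesenchyme. The treated CD106+ library held them at 903 and 608 CPM, of 1693 CPM. Of 8 basement membrane genes at 5 CPM or more there, 5 had a log2 ratio to the untreated libraries below 0 (median -0.74). The other collagens summed to 5028 and 5806 CPM in saline and 5138 to 6343 CPM under dexamethasone, which overlap. These sums weigh long transcripts more and carry no test.

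**Figure D1:**
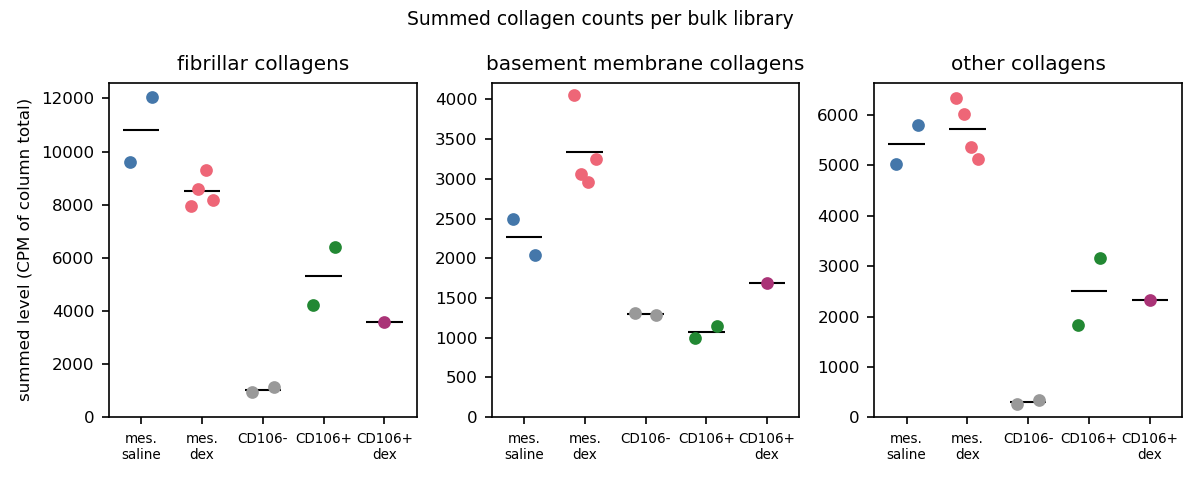
Summed level (CPM of column total, linear axis from 0) of the fibrillar, basement membrane and other collagens in each of 11 bulk libraries, 1 point a library, with the group mean as a line; mes. is sorted mesenchyme and dex dexamethasone. Treated mesenchyme lies below saline for fibrillar and above saline for basement membrane collagens, and CD106- libraries are lowest for fibrillar and other collagens.

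None of the collagens passed the test 2 hours after dexamethasone in sorted mesenchyme, although the basement membrane chains leaned up and the fibrillar chains leaned down. Of 38 genes, 32 had counts enough to test, and 0 were called by edgeR's quasi-likelihood test at an adjusted p under 0.05, against 2.69% of all 11356 genes tested (1.95% higher and 0.740% lower). An unadjusted p under 0.05 was reached by 5 of 32 (15.6%), near the 13.8% of all genes. DESeq2 called 2 collagens (Col4a1 and Col4a5, both higher) and limma-voom 1 (Col6a6, lower). The groups did not overlap for 14 of 32 (43.8%), against 23.0% of all genes. Of these 14, 7 were higher under treatment (9.99% of all genes were), namely Col4a1, Col4a2, Col4a5, Col4a6, Col18a1, Col13a1 and Col25a1. The other 7 were lower (13.0% of all genes were), namely Col1a1, Col1a2, Col5a1, Col5a3, Col6a4, Col6a6 and Col8a1. The median log2 fold change was 0.62 for 8 basement membrane genes (7 above 0), -0.32 for 8 fibrillar genes (1 above 0) and 0.08 for 16 others (9 above 0), beside -0.01 for all genes (49.1% above 0).

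Among basement membrane collagens, the paired genes Col4a1 and Col4a2, whose α1 and α2 chains make the common type IV network, were at higher levels in every treated pool than in both saline pools. Col4a1 (chromosome 8, 11198423 to 11312889) was at 1119 and 1021 CPM in saline and 1926, 1536, 1459 and 1619.7 CPM under dexamethasone. All 4 treated pools lay above both saline pools, but the difference did not pass (log2 fold change 0.67, SE 0.22, edgeR adjusted p = 0.120). Col4a2 (chromosome 8, 11312805 to 11449287) was at 1189 and 889 CPM in saline and 1938, 1304, 1247 and 1415 CPM under dexamethasone, with treated pool 1 well above the rest (log2 fold change 0.56, SE 0.24, edgeR adjusted p = 0.292). Their gene spans overlap by 85 bases and the use of strand in counting is not given, so reads there cannot be assigned to either.

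Col4a5, which encodes the X-linked α5 chain, leaned up by the most of the type IV genes. Its levels (chromosome X, 141475370 to 141689236) were 36.5 and 55.5 CPM in saline and 68.4, 110.1, 74.3 and 102 CPM under dexamethasone (log2 fold change 1.01, SE 0.31, edgeR adjusted p = 0.0980). The lowest treated pool lay above the higher saline pool. Its neighbour Col4a6 (chromosome X, 141165403 to 141474095), for the α6 chain, was at 10.8 and 14.4 against 15.4, 17.0, 17.1 and 16.6 CPM (log2 fold change 0.45, SE 0.46, edgeR adjusted p = 0.751). The pools differed in sex genes, and both Col4a5 and Col4a6 lie on X. With the Xist level as a covariate, Col4a5 had a log2 fold change of 1.13 (SE 0.41, edgeR adjusted p = 0.205). Xist did not overlap between the groups, so that fit cannot separate sex from treatment. Col4a3 and Col4a4, for the α3 and α4 chains, overlapped between the groups, at 43.7 and 13.2 against 36.9, 28.6, 74.3 and 38.5 CPM and 16.8 and 3.29 against 12.5, 8.16, 9.46 and 10.2 CPM. Col18a1 (chromosome 10, 77052178 to 77166530), whose C-terminal fragment is endostatin, was at 17.95 and 18.51 CPM in saline and 36.0, 32.3, 24.3 and 27.2 CPM under dexamethasone (edgeR adjusted p = 0.398). Col15a1, its relative in the same class, overlapped, at 60.4 and 27.1 against 22.7, 26.5, 52.2 and 22.6 CPM. The summed endothelial markers were 101 and 31.3 CPM in saline and 140, 82.9, 31.5 and 66.0 CPM under dexamethasone. These overlapped between the groups, but within each group the pool with most endothelial RNA also had most Col4a1 and Col4a2. The same pools had most pericyte marker RNA, summing to 737 and 537 CPM in saline and 961, 616, 621 and 611 CPM under dexamethasone. The part of endothelial and pericyte RNA was not tested.

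Among fibrillar collagens, both chains of type I leaned down together. Col1a1 (chromosome 11, 94936224 to 94953042) was at 2751 and 3084 CPM in saline and 2186, 1768, 2531 and 1765 CPM under dexamethasone (log2 fold change -0.44, SE 0.21, edgeR adjusted p = 0.384). Col1a2 (chromosome 6, 4505618 to 4541543), the other type I chain, was at 3188 and 3979.6 against 2688, 2507, 2919 and 2634 CPM (log2 fold change -0.35, SE 0.20, edgeR adjusted p = 0.494). The groups did not overlap for either gene, and neither passed. Col3a1 (chromosome 1, 45311538 to 45349706), the type III chain of compliant fibres, overlapped, at 2183 and 3741 against 1972, 3231, 2677 and 2662 CPM, and its fold of -0.09 changed sign without saline pool 2 (0.29) or dexamethasone pool 1 (0.03). Col5a1 (chromosome 2, 27886381 to 28039510), of the nucleating type V, was at 760.1 and 626 against 597, 513, 592 and 477 CPM, all treated pools lower (edgeR adjusted p = 0.613). Col5a2 (chromosome 1, 45374331 to 45503282), its partner chain, overlapped at 312 and 347 against 304, 379.6, 282 and 331 CPM. Col5a3, Col24a1 and Col27a1, minor fibrillar chains, had log2 fold changes of -1.47, -0.07 and -0.48 with edgeR adjusted p of 0.589, 0.956 and 0.471.

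Of the remaining collagens, none of the 3 principal type VI chains passed. Col6a1 was at 1172 ± 98.0 against 1067 ± 13.9 CPM (n = 4 and 2), Col6a2 at 1746 ± 198 against 1597 ± 81.4 CPM and Col6a3 at 1604 ± 298 against 1367 ± 145 CPM, with log2 fold changes of 0.19, 0.19 and 0.29 and edgeR adjusted p of 0.760 to 0.629. Col6a6, a later-described type VI chain, was at 19.2 and 46.1 CPM in saline and 2.13, 7.48, 16.7 and 2.26 CPM under dexamethasone (log2 fold change -2.16, SE 0.67, edgeR adjusted p = 0.119). Treated pool 3 lay close to the lower saline pool, and without it Col6a6 passed (edgeR adjusted p = 0.0131). Col12a1, a collagen that lies on the surface of fibres, was at 311 and 487 against 184, 247, 324 and 214 CPM (log2 fold change -0.65, SE 0.24, edgeR adjusted p = 0.205), with pool 3 inside the saline range. Col13a1, a transmembrane collagen, was at 39.5 and 46.1 against 72.7, 68.0, 57.2 and 46.8 CPM (edgeR adjusted p = 0.438). Col8a1, a short-chain network collagen, ran from 0.237 to 60.3 CPM under dexamethasone and stood at 76.0 and 102 CPM in saline. Col7a1, Col10a1, Col19a1, Col20a1, Col22a1 and Col28a1 were too low to test, and Col10a1, which marks hypertrophic cartilage and was kept by the rule, reached at most 5.85 CPM in these pools.

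Cartilage markers moved with these groups. The 7 chondrocyte markers, among which Comp was at 0 in every treated pool, summed to 275 and 160 CPM in saline and 6.87 to 111 CPM under dexamethasone. The excluded cartilage collagen Col2a1 was at 1090.4 and 403 CPM in saline and 6.15, 26.9, 247 and 40.4 CPM under dexamethasone. When the chondrocyte marker level entered the fit as a covariate, Col4a1 went from 0.67 to 0.40, Col4a2 from 0.56 to 0.15 and Col6a6 from -2.16 to -0.42 on the log2 scale, with no collagen called. In the same fit Col4a5 went from 1.01 to 0.83, Col4a6 from 0.45 to 0.51 and Col1a1 from -0.44 to -0.18. The marker sums did not overlap between the groups, so the fit cannot separate cartilage RNA from treatment. Its smaller folds and its lack of calls therefore decide nothing about either. Smooth muscle markers summed to 1603 and 1998 CPM in saline and 1025 to 1128 CPM under dexamethasone; their part in the fibrillar levels was not tested.

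**Figure D2:**
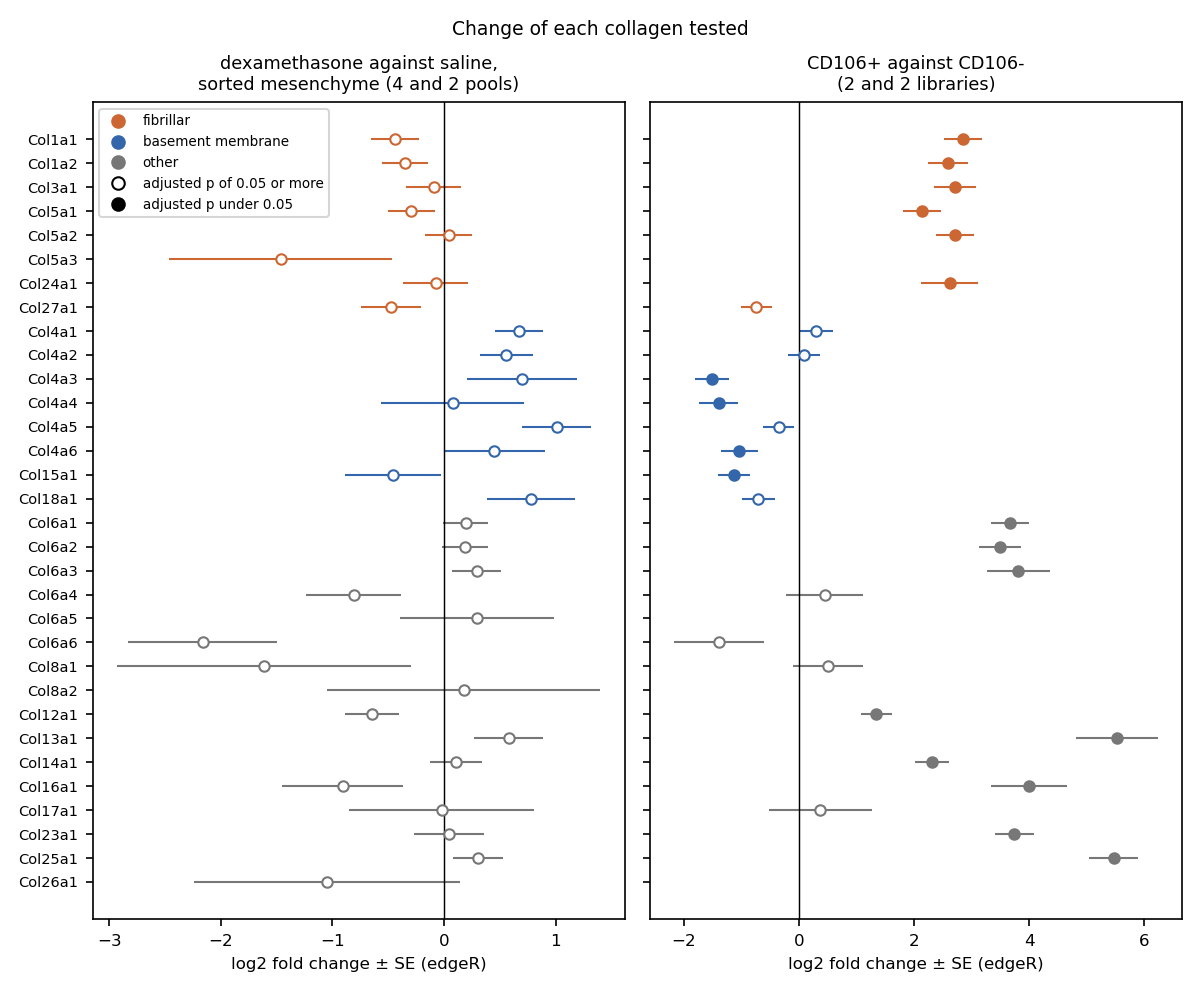
Log2 fold change with its standard error (edgeR) of each collagen tested, for dexamethasone against saline in sorted mesenchyme (left, 32 genes) and CD106+ against CD106- cells (right, 28 genes). Filled points have an adjusted p under 0.05: none on the left, and 15 above and 4 below 0 on the right, the 4 all basement membrane genes.

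Of 21 genes of collagen synthesis and folding tested, 2 were called, against 2.69% of all genes: Tmem38b rose, P4ha3 fell and 19 did not pass (list median -0.11, all genes -0.01). Tmem38b, a channel of the endoplasmic reticulum needed for collagen assembly in bone, was at 29.3 and 56.3 CPM in saline and 121, 127, 129 and 139.9 CPM under dexamethasone (log2 fold change 1.65, SE 0.29, edgeR adjusted p = 0.00346). P4ha3, a subunit of the prolyl 4-hydroxylase that stabilises the triple helix, was at 316 and 499.7 against 131, 184, 204 and 126 CPM (log2 fold change -1.27, SE 0.24, edgeR adjusted p = 0.00721). The lysyl hydroxylase Plod1 and the hydroxylase subunit P4ha1 did not pass, with log2 fold changes of 0.89 and -0.75 (edgeR adjusted p = 0.265 and 0.320). Of 20 processing and crosslinking genes 0 passed (list median 0.01). The crosslinking oxidase Lox was at 1507 and 2222 CPM in saline and 3501, 4403, 2477 and 3048 CPM under dexamethasone (log2 fold change 0.92, SE 0.25, edgeR adjusted p = 0.0607), and the fibril proteoglycan Dcn had a log2 fold change of -1.31 (edgeR adjusted p = 0.248). Pcolce2, an enhancer of propeptide removal, and Fmod, a fibril proteoglycan, had 1.31 and 0.77 (edgeR adjusted p = 0.270 and 0.307). Of 8 receptor and uptake genes 0 passed (list median -0.06), with the smallest p for the collagen-activated kinase Ddr2 at 229 ± 17.49 against 311 ± 26.1 CPM (edgeR adjusted p = 0.452).

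CD106+ cells carried far more fibrillar and type VI collagen RNA than CD106- cells, and less of several basement membrane chains. Of 28 collagens tested, 15 were higher in CD106+ cells, against 6.67% of all 12364 genes, and 4 were lower, against 3.35%, by edgeR at an adjusted p under 0.05 (10.0% of all genes in either direction). An unadjusted p under 0.05 was reached by 21 of 28 (75.0%, against 19.8% of all genes), and the libraries did not overlap for 24 of 28 (85.7%, against 47.7%), 16 of them higher (25.7% of all genes) and 8 lower (22.1%). The higher genes were 6 of 7 fibrillar and 9 of 13 other collagens and 0 of 8 basement membrane collagens; the 4 lower were all basement membrane genes. The median log2 fold change was 2.62 for fibrillar, 3.49 for other and -0.87 for basement membrane collagens, beside 0.05 for all genes. Too low to test were Col5a3, Col7a1, Col6a5, Col8a2, Col10a1, Col19a1, Col20a1, Col22a1, Col26a1 and Col28a1.

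Of 7 fibrillar collagens tested, Col27a1 alone was not higher. Col1a1 was at 574 and 952 CPM in the CD106+ pair against 92.3 and 109.5 CPM in the CD106- pair (log2 fold change 2.85, SE 0.33, edgeR adjusted p = 7.60e-07). Col1a2 was at 1102 and 1813 against 195 and 268 CPM (log2 fold change 2.59, SE 0.35, edgeR adjusted p = 8.22e-06). Col3a1 was at 2004 and 2881 against 317 and 397 CPM (log2 fold change 2.71, SE 0.36, edgeR adjusted p = 6.26e-06). CD106+ library 2 was the higher of its pair for each of these, and both lay clear of the CD106- libraries. Col5a1, Col5a2 and Col24a1 were higher by 2.14, 2.71 and 2.62 on the log2 scale, from 53.5 ± 19.9, 29.6 ± 13.5 and 4.20 ± 1.59 CPM in CD106- cells (n = 2 each). Col27a1, a fibrillar collagen best known from cartilage, went the other way without passing, at 175 and 148 against 277 and 249 CPM (log2 fold change -0.74, SE 0.27, edgeR adjusted p = 0.0979), and passed without CD106+ library 1 (edgeR adjusted p = 5.58e-04).

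Basement membrane collagens split by chain. The common chains did not pass: Col4a1 was at 340.5 and 467 against 293 and 337 CPM (log2 fold change 0.30, SE 0.29, edgeR adjusted p = 0.671) and Col4a2 at 259 and 281 against 264 and 229.9 CPM (log2 fold change 0.09, SE 0.27, edgeR adjusted p = 0.919). The paired genes Col4a3 and Col4a4 (chromosome 1, 82586921 to 82722059, and 82448419 to 82587034) were both lower in CD106+ cells. Col4a3 was at 73.6 and 49.6 against 155 and 187 CPM (log2 fold change -1.51, SE 0.29, edgeR adjusted p = 8.95e-04). Col4a4 was at 32.7 and 18.4 against 67.1 and 64.3 CPM (log2 fold change -1.39, SE 0.34, edgeR adjusted p = 0.00753). Their spans overlap by 114 bases. Of the X-linked pair, Col4a6 was lower, at 39.9 and 26.4 against 76.2 and 56.8 CPM (log2 fold change -1.03, SE 0.32, edgeR adjusted p = 0.0402). Col4a5 was at 114 and 99.8 against 130.2 and 134 CPM and did not pass (log2 fold change -0.35, SE 0.27, edgeR adjusted p = 0.568). Col15a1 (chromosome 4, 47207655 to 47313167) was lower, at 63.4 and 56.8 against 144 and 113 CPM (log2 fold change -1.13, SE 0.28, edgeR adjusted p = 0.00738), and Col18a1 did not pass, at 75.4 and 150.1 against 184 and 169 CPM (log2 fold change -0.71, SE 0.29, edgeR adjusted p = 0.147). Without CD106+ library 2 Col18a1 passed (edgeR adjusted p = 1.86e-04). The lower calls rested on the spread of 2 libraries: leaving out either CD106- library left only Col4a3 called, with edgeR adjusted p of 0.0637 and 0.0681 for Col4a4, 0.126 and 0.482 for Col4a6 and 0.0528 and 0.226 for Col15a1, where the lone CD106- library is assumed to vary like the CD106+ libraries.

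Epithelial RNA, like these 4 genes, was lower in CD106+ than in CD106- cells. Within the CD106+ pair, library 2 had less of all 4 genes, and the epithelial markers were split. The epithelial sum was larger in library 2, where Sftpc, a marker that did not pass, was at 2458 CPM against 665 CPM in library 1. Sftpb, Krt8 and Krt18 were also higher in library 2. Epcam, Cdh1 and Nkx2-1 were lower there, at 198, 574 and 269 CPM against 205, 607 and 364 CPM in library 1. The 7 epithelial markers together read 5031 and 4428 CPM without CD106 and 2079 and 3775 CPM with it, so neither fraction was free of them, and 4 of 7 (Epcam, Cdh1, Nkx2-1 and Sftpb) were lower in CD106+ cells. Epcam was at 205 and 198 against 492 and 341 CPM (log2 fold change -1.08, SE 0.29, edgeR adjusted p = 0.0149). Mesothelial markers were lower in 2 of 5 cases, summing to 12.2 and 16.1 against 50.9 and 52.7 CPM. All 6 mesenchyme markers tested were higher, summing to 1832 and 2484 against 183 and 435 CPM, and so were 5 of 6 endothelial markers, summing to 92.8 and 116 against 13.3 and 17.7 CPM. The part of each cell type in the collagen levels was not tested.

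The type VI, fibre-associated and transmembrane collagens also differed. Col6a1 (chromosome 10, 76708792 to 76726044) was at 261 and 512 against 24.8 and 33.0 CPM (log2 fold change 3.67, SE 0.34, edgeR adjusted p = 3.57e-08). Its neighbour Col6a2 (chromosome 10, 76595756 to 76623630) was at 294 and 636 against 29.8 and 48.3 CPM (log2 fold change 3.49, SE 0.37, edgeR adjusted p = 1.23e-06). Col6a3 (chromosome 1, 90766860 to 90844001) was at 408 and 852 against 22.1 and 62.3 CPM (log2 fold change 3.81, SE 0.55, edgeR adjusted p = 0.00222); it lost its call without CD106+ library 1 (edgeR adjusted p = 0.114), and its fold was 3.22 without CD106- library 1 and 4.79 without CD106- library 2. Col13a1, Col23a1 and Col25a1 encode collagens that span the cell membrane. Col13a1 (chromosome 10, 61838234 to 61979206) was at 29.1 and 49.1 against 0 and 1.50 CPM (log2 fold change 5.53, SE 0.71, edgeR adjusted p = 4.21e-05). Without CD106- library 1 its fold was 4.58; without CD106- library 2 the CD106- side had 0 counts, and the fitted value of 10.81 depends on the prior count and is no bound. Col25a1 (chromosome 3, 130180358 to 130599884) was at 256 and 235 against 2.50 and 7.99 CPM (log2 fold change 5.47, SE 0.43, edgeR adjusted p = 1.14e-07), with 4.85 without CD106- library 1 and 6.599 without CD106- library 2. Col23a1 (chromosome 11, 51289679 to 51583925) was at 106 and 207 against 9.81 and 12.5 CPM (log2 fold change 3.74, SE 0.34, edgeR adjusted p = 2.64e-08). Collagens that bind along fibres were also higher: Col14a1 by 2.32, Col16a1 by 4.00 and Col12a1 by 1.35 on the log2 scale, from 55.7 ± 0.748, 1.31 ± 1.14 and 91.1 ± 2.86 CPM in CD106- cells (n = 2 each). The fold of Col16a1 was 5.25 without CD106- library 1, 3.29 without CD106- library 2 and 3.33 without CD106+ library 2. Col12a1 lost its call without either CD106- library (edgeR adjusted p = 0.106 and 0.0915). Col17a1, the collagen of epithelial hemidesmosomes, did not pass at 2.17 ± 0.895 against 1.65 ± 0.926 CPM, nor did Col6a4, Col6a6 and Col8a1.

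**Figure D3:**
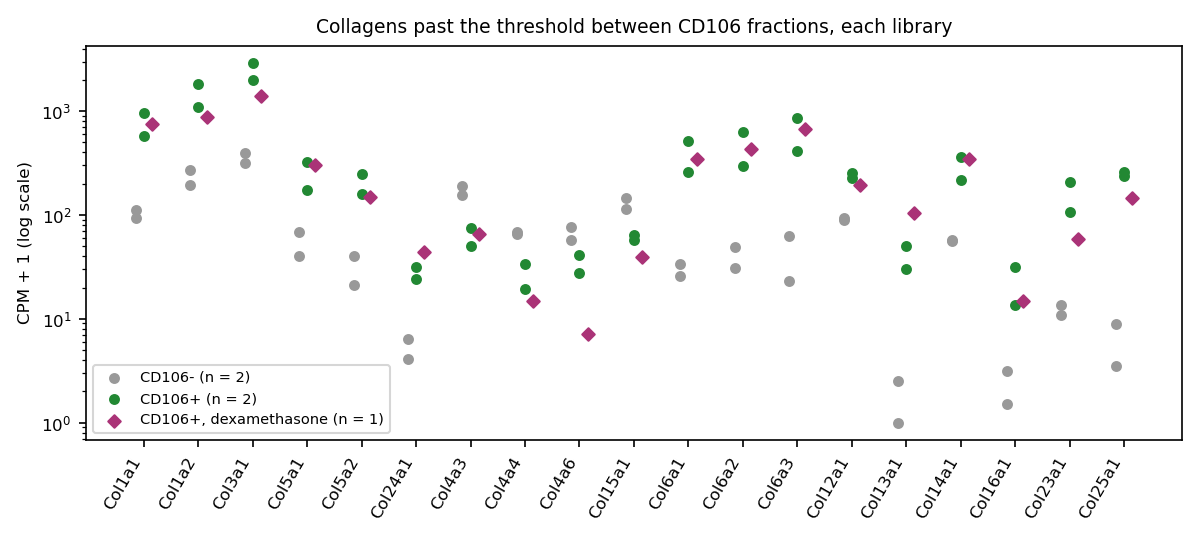
CPM + 1 on a log axis of the 19 collagens past the threshold between the CD106 fractions, 1 point a library: 2 CD106-, 2 CD106+ and 1 CD106+ library after dexamethasone. The CD106+ points lie above the CD106- points for 15 genes and below for Col4a3, Col4a4, Col4a6 and Col15a1; the treated library lies well below both other fractions for Col4a6.

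Several genes that make, process or bind collagen were also higher in CD106+ cells. Of 20 synthesis genes tested, 5 were higher, against 6.67% of all genes, and 0 lower, against 3.35% (list median 0.57, all genes 0.05). They were P3h3, P3h1 and Crtap, of the prolyl 3-hydroxylation machinery, the isomerase Fkbp14, and Creb3l1, a transcription factor of the secretory pathway, with log2 fold changes of 2.94, 1.69, 1.29, 1.25 and 0.95 (edgeR adjusted p = 7.87e-05 to 0.0433). Of 20 processing and crosslinking genes, 11 were higher and 0 lower, against the same 6.67% and 3.35% of all genes (list median 1.69). The fibril-associated Dpt was at 41.1 and 59.6 against 1.35 and 0.999 CPM, Lox at 1046 and 1365 against 114 and 228 CPM, and the proteoglycans Bgn and Dcn at 1164 and 1336 against 160.2 and 260.2 CPM and 74.8 and 115 against 20.4 and 17.0 CPM. Their log2 fold changes were 5.36, 2.75, 2.52 and 2.29. Of 8 receptors, the kinase Ddr2 and the integrin subunit Itga1 were higher, by 2.28 and 2.33 (list median 0.23; 6.67% of all genes were higher), and Mrc2 and Itga11 did not pass.

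In the treated CD106+ library, Col4a1 and Col4a2 stood higher than in both untreated CD106+ libraries, and the X-linked pair Col4a5 and Col4a6 stood lower. There was 1 treated library, so collagens were called at a 2-fold ratio of CPM + 1, with at least 5 CPM in a group, and without a test of replicates. Of 26 collagens at that level, 3 were higher, against 13.0% of 11486 genes, and 6 were lower, against 18.1%; in either direction 34.6% of these collagens and 31.1% of all genes, a share near the background. The untreated libraries are the same 2 CD106+ libraries as in the comparison with CD106- cells.

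Col4a1 was at 903 CPM in the treated library against 340.5 and 467 CPM in the untreated ones (log2 ratio 1.16) and Col4a2 at 608 CPM in the treated library against 259 and 281 CPM (log2 ratio 1.17). Against CD106+ library 2 alone, Col4a1 had a log2 ratio of 0.95. Endothelial markers, all 6 of them at least 2-fold higher and summing to 2303 against 92.8 and 116 CPM, moved with both genes, and their part was not tested. Col4a5 was at 19.0 CPM in the treated library against 114 and 99.8 CPM (log2 ratio -2.43) and Col4a6 at 6.07 CPM in the treated library against 39.9 and 26.4 CPM (log2 ratio -2.27), both outside the range of every other bulk library. Col18a1 was at 36.7 CPM in the treated library against 75.4 and 150.1 CPM (log2 ratio -1.59) and Col27a1 at 65.7 CPM in the treated library against 175 and 148 CPM (log2 ratio -1.28). Col23a1 was at 58.0 CPM in the treated library against 106 and 207 CPM (log2 ratio -1.42, and -0.86 without CD106+ library 2), and Col13a1, the third higher gene, at 103 CPM in the treated library against 29.1 and 49.1 CPM (log2 ratio 1.37). Col6a4 had 0 counts against 5.01 and 7.43 CPM, at least 7.86-fold lower at a floor of 3 counts in the treated library. Epithelial markers were lower as well, summing to 1193 against 2079 and 3775 CPM, with Epcam at 27.4 against 205 and 198 CPM. Their part in any of the lower genes was not tested.

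Among fibrillar genes, Col1a1 was at 759 CPM in the treated library against 574 and 952 CPM, inside the untreated range, while Col1a2 was at 868 CPM in the treated library against 1102 and 1813 CPM (log2 ratio -0.75) and Col3a1 at 1384 CPM in the treated library against 2004 and 2881 CPM (log2 ratio -0.82), both below that range. Col5a1 was at 299 CPM in the treated library against 174 and 325 CPM and Col5a2 at 149.6 CPM in the treated library against 159.6 and 248 CPM. The 7 mesenchyme markers summed to 1283 CPM in the treated library against 1832 and 2484 CPM. Of them 2 (Pdgfra and Vcam1) were at least 2-fold lower and 1 (Tcf21) was higher. Pdgfra was at 171 against 526 and 608 CPM, and the part of mesenchyme RNA was not tested. The type VI chains lay inside the untreated range, Col6a1 at 341 CPM in the treated library against 261 and 512 CPM, Col6a2 at 433 CPM in the treated library against 294 and 636 CPM and Col6a3 at 679 CPM in the treated library against 408 and 852 CPM. Col15a1 was at 38.0 CPM in the treated library against 63.4 and 56.8 CPM (log2 ratio -0.65).

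When edgeR was fitted over the 5 CD106 libraries in 3 groups, the lone treated library being assumed to vary like the others, 2 collagens of 30 tested were higher (6.28% of 12562 genes) and 5 lower (5.64%). The higher were Col4a1 and Col4a2 (edgeR adjusted p = 0.0136 and 0.00942). The lower were Col4a5, Col4a6, Col18a1, Col27a1 and Col6a4 (edgeR adjusted p = 5.54e-04, 0.00570, 0.0225, 0.0427 and 0.0186). Col13a1 and Col23a1 did not pass (edgeR adjusted p = 0.0665 and 0.0515).

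**Figure D4:**
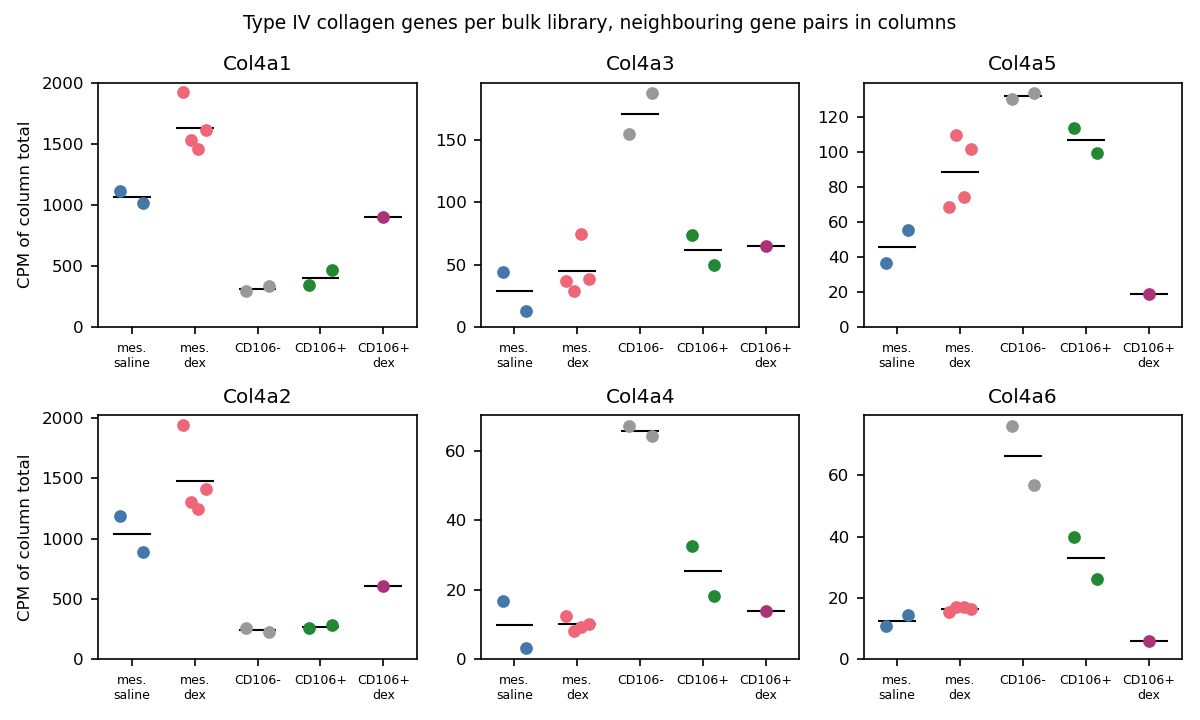
CPM (linear axes from 0) of the 6 type IV collagen genes in each of 11 bulk libraries, with the neighbouring gene pairs in columns, 1 point a library and the group mean as a line. Col4a1 and Col4a2 are higher in treated than in control libraries in both sets, Col4a3 and Col4a4 are highest in CD106- libraries, and Col4a5 and Col4a6 are lowest in the treated CD106+ library.

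An edgeR fit over 9 libraries, added after the data were seen, set the log2 fold change under dexamethasone in CD106+ cells against that in mesenchyme. The CD106+ side rests on 1 treated library, which the fit assumes to vary like the others. Of 12649 genes 308 passed (2.43%), and of 34 collagens 1 passed (2.94%), a share near the background. Col4a5 had a difference of -3.35 (SE 0.57, edgeR adjusted p = 0.00261), from 36.5 and 55.5 to 68.4, 110.1, 74.3 and 102 CPM in mesenchyme and from 114 and 99.8 to 19.0 CPM in CD106+ cells. Within mesenchyme alone its change did not pass (edgeR adjusted p = 0.0980). Its neighbour Col4a6 had -2.76 (edgeR adjusted p = 0.0851) and Col18a1 -2.22 (edgeR adjusted p = 0.0658), neither passing. The differences for Col4a1 and Col4a2 were 0.65 and 0.76 (edgeR adjusted p = 0.494 and 0.444). Table, sort and time after injection also differ between the sets. The mesenchyme came from Twist2Cre-carrying pups, and the strain of the CD106 libraries is not given. Sex genes separated treated from saline pools in mesenchyme, with Ddx3y at 74.4 to 174 against 1.20 and 0 CPM. In CD106+ cells Ddx3y was at 112 CPM in the treated library against 80.2 and 47.5 CPM. None of these can be told apart from the cell population here, and Col4a5 lies on X. Marker RNA also moved in the treated CD106+ library, with Epcam at 27.4 against 205 and 198 CPM, summed epithelial markers at 1193 against 2079 and 3775 CPM and summed endothelial markers at 2303 against 92.8 and 116 CPM; their part was not tested.

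The single cells, taken 24 hours after injection, were described without a test, since no animal is named and each group counts as 1 sample. Cells held 215623 to 1781606 counts after dexamethasone and 879285 to 1787997 after saline. Counting intervals below are exact Poisson 95% intervals of the summed counts and cover counting error only. The labels name no cell type. Pecam1, the endothelial surface protein CD31, exceeded 100 CPM in 1 of 15 dexamethasone and 5 of 11 saline cells, and the 6 endothelial markers summed to 176 against 1365 CPM. Epcam was at 0 in all 26 cells, but the 7 epithelial markers summed to 631 against 147 CPM. Sftpc and Krt18, the 2 of them at 20 CPM or more in a group, were at least 2-fold higher in the dexamethasone cells. Dexamethasone cells 11, 15 and 12, each under 500000 counts, held 8283, 3802 and 2716 CPM of epithelial markers. Dexamethasone cell 14 held 238179 CPM of haemoglobin and erythroid RNA, and saline cell 11 held 53714.5 CPM of smooth muscle markers. Of the 5 glucocorticoid-induced genes, 3 (Fkbp5, Tsc22d3 and Pdk4) were at least 2-fold lower in the dexamethasone cells, the direction opposite to both bulk sets, and Errfi1 was higher, as in bulk. For Fkbp5, 87.2% of the saline counts came from cell 10, and without the Pecam1 cells its log2 ratio was 0.33; Tsc22d3 and Pdk4 were then still lower, at -1.63 and -2.51. For Errfi1, 75.5% of the dexamethasone counts came from cell 15. The 2 groups carry different prefixes in their column names, so whatever the prefix stands for cannot be told apart from treatment, and 1 index label occurs in 2 cells, 1 of each group.

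Of 20 collagens at 20 CPM or more in a group, 9 were at least 2-fold higher in the dexamethasone cells, against 29.3% of 7682 genes, and 4 lower, against 35.0%. In either direction that is 65.0% of these collagens and 64.2% of all genes, a share near the background. Without the cells above 100 CPM of Pecam1, 9 of 19 collagens were higher (36.4% of all genes) and 4 lower (34.6%), in either direction 68.4% against 71.0%, and 3 of the 4 lower genes were others: Col5a1, Col12a1 and Col16a1 beside Col4a1. Col1a1 was at 812 against 339 CPM over summed counts (intervals 797 to 828 and 329.6 to 348), a log2 ratio of 1.26. With cells under 500000 counts left out, 3 dexamethasone and 0 saline cells, its log2 ratio was 0.89, under 2-fold. Per cell Col1a1 ran from 3.37 over a median of 713 to 4453 CPM after dexamethasone and from 0 over 269 to 968 CPM after saline, which overlap widely. Col1a2 at 2007 against 1591 CPM and Col3a1 at 1238 against 1200.2 CPM were not 2-fold apart. Col5a2 at 296 against 124 CPM (log2 ratio 1.24) was higher and Col5a1 at 56.4 against 60.2 CPM was not.

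Among the type IV genes, Col4a1 was at 447 against 1376 CPM (intervals 435 to 458 and 1357 to 1395), a log2 ratio of -1.62. Per cell, Col4a1 had a median of 349 CPM after dexamethasone and 1226 CPM after saline, with highest cells of 1252 and 2599 CPM. Col4a2 was at 295 against 725 CPM (log2 ratio -1.29). Without the cells above 100 CPM of Pecam1, Col4a1 was at 408 against 963 CPM (log2 ratio -1.24) and Col4a2 at 252 against 349 CPM (log2 ratio -0.47), so the first kept its 2-fold difference and the second did not. Endothelial markers summed to 7.85 and 133 CPM in the cells that were left. These cells still differed in other markers, smooth muscle markers summing to 1112 against 13581 CPM and mesenchyme markers to 4086 against 1921 CPM. The part of these markers was not tested. Col4a3 and Col4a5 had log2 ratios of -2.29 and -4.05, with the saline counts mostly in 1 cell each: saline cell 6 held 82.0% of the saline Col4a3 counts and saline cell 9 held 97.2% of the Col4a5 counts. Without the Pecam1 cells these ratios were 0.18 and -0.00469. Col4a6, at 137 against 2.49 CPM, and Col7a1, at 22.6 against 4.85 CPM, were each found in 1 cell per group.

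The other collagens with higher sums were Col18a1, Col6a3, Col13a1, Col14a1 and Col23a1. Col6a3 was at 1950.2 against 769 CPM (log2 ratio 1.34; 0.95 without the Pecam1 cells), and it was detected in all 26 cells. Col14a1 was at 405 against 103 CPM (log2 ratio 1.96), in 12 of 15 and 10 of 11 cells. Col13a1 was at 101 against 11.5 CPM (log2 ratio 3.03), in 11 of 15 and 6 of 11 cells. Both Col13a1 and Col14a1 remained at least 2-fold higher without the Pecam1 cells. Col18a1 was at 240.3 against 53.2 CPM (log2 ratio 2.15), with 61.4% of the dexamethasone counts in cell 8 and 67.3% of the saline counts in cell 1. Col23a1 was at 191 against 44.9 CPM, with 59.2% of counts in dexamethasone cell 6 and 99.9% in saline cell 4. Col6a1 was at 1604 against 932 CPM and Col6a2 at 716 against 373 CPM, under 2-fold. Col15a1 stayed under the level minimum, at 5.18 against 1.75 CPM. Col5a3, Col6a5, Col6a6, Col10a1, Col19a1, Col20a1, Col26a1 and Col28a1 had 0 counts in all cells.

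**Figure D5:**
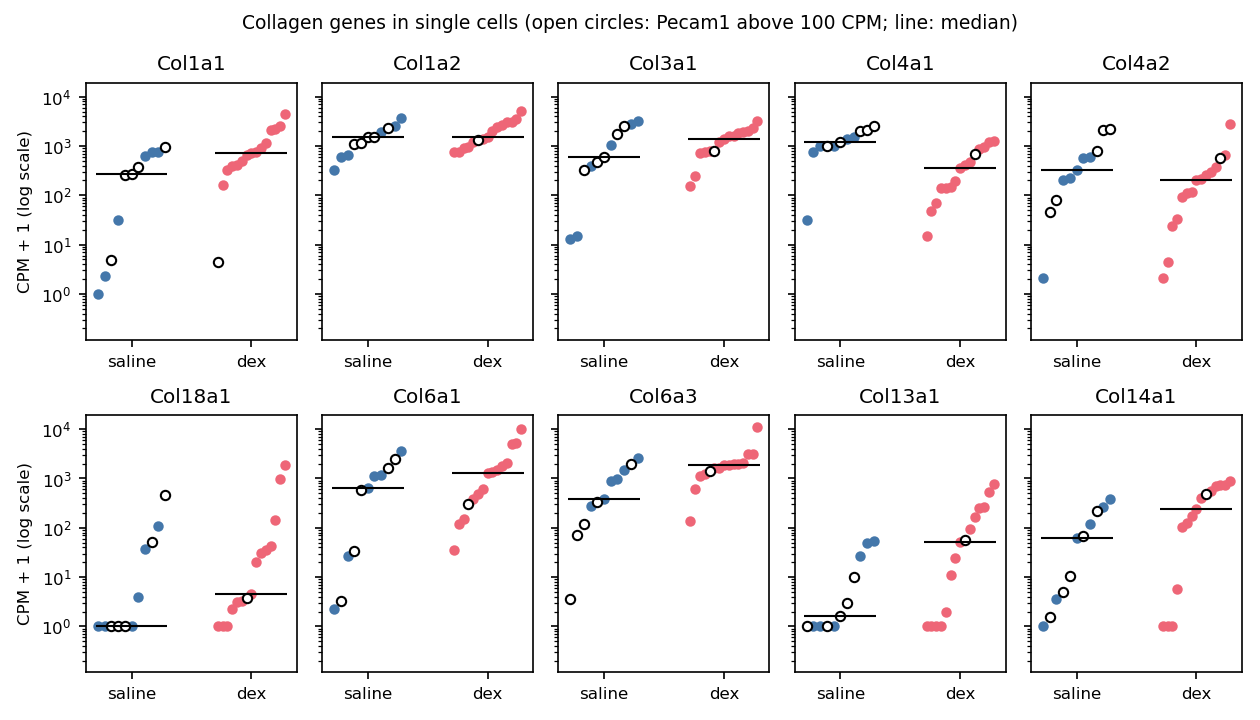
CPM + 1 on a log axis of 10 collagen genes in each of 11 saline and 15 dexamethasone (dex) cells, 1 point a cell in rising order, with the median as a line; open circles are the 5 saline and 1 dexamethasone cells with Pecam1 above 100 CPM. The groups overlap for every gene drawn, and the Col4a1 medians are 1226 CPM in saline and 349 CPM in dexamethasone cells.

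The ratio of chains that assemble into 1 molecule spread more widely over single cells than over bulk libraries. A bulk library averages over many cells, so a wider spread over single cells is given by the design. No other gene pair was compared, and whether the spread is particular to collagens was not tested. The α1 and α2 chains of type IV join in a fixed proportion, and Col4a1 counts over Col4a2 counts ranged from 0.941 to 1.66 across the 11 bulk libraries. Over the single cells with more than 3 counts of both genes, the same ratio ran from 0.0375 to 29.7 after dexamethasone (median 1.61) and from 0.152 to 44.6 after saline (median 1.62), and the counts were more than 10-fold apart in 4 of 13 and 2 of 10 such cells. For type I, Col1a1 over Col1a2 ranged from 0.409 to 0.875 in bulk, and the counts were more than 10-fold apart in 2 of 15 dexamethasone cells and 2 of 9 saline cells with more than 3 counts of both.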

How the data were processed

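RNA was counted by the authors, who deposited 4 tables of expected counts for 24371 gene symbols each. Between 5.35 and 9.21% of a bulk library's values are fractional. Counts were rounded to whole numbers for the edgeR, DESeq2 and limma-voom fits, the thinning, the Poisson intervals and the chi-square between replicates. CPM levels, their sums and their ratios were computed from the unrounded values. Per the submitters' processing notes, the build was mm10, and Trim Galore, Bowtie2, TopHat2, Partek, MACS2 and HOMER are listed without versions or roles. How reads were assigned to genes, and whether strand was used, is not stated in those notes or the labels. No label holds the code that heads the treated CD106+ column; it was assigned because only that sample's description names the table.

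Bulk groups were compared with edgeR's quasi-likelihood test (R 4.3.3, edgeR 4.0.16) after filterByExpr and TMM, each fit holding the compared groups alone, and Benjamini-Hochberg adjustment over all genes at 0.05. Groups with 1 sample were described by log2 ratios of CPM + 1, called at 2-fold with a minimum of 5 CPM (CD106+ library) or 20 CPM (cells, summed counts); no doublet caller was run. Alternatives were total-count and RLE scaling, other filters, DESeq2 1.42.0, limma-voom (limma 3.58.1), leaving out each library, a replicate block, removal of Rn45s (0.902 to 9.83% of bulk counts) or of X and Y genes, Xist and chondrocyte covariates, other pseudocounts and minimums, per-cell means and removal of cells with Pecam1 above 100 CPM. Added after seeing the data were cells under 500000 counts left out, thinning to 200000 counts and the interaction fit. The collagens and all lists were chosen with earlier results of these data known. Genes named with values are those past a threshold, 14 collagens given in every comparison and up to 4 members of each partner list by smallest p; others with values, and marker genes beyond the fixed checks, were chosen after their values were seen. On simulated counts edgeR recovered 11% of log2 changes of 1 and 59% of 2 for the mesenchyme comparison (10928 genes, 3 of 73 calls false); for the CD106 fractions these shares were 25% and 72% (12091 genes, 12 of 109 calls false). Replicates differed beyond sampling noise (chi-square per degree of freedom 9.15 to 37.9). Same-numbered libraries did not deviate together (r = -0.0213 and 0.118 in mesenchyme, -0.0132 in the CD106 pairs), so numbers were not treated as pairs.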

Additional observations from a re-analysis of the deposited data

Results flagged for a closer look

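Within the 4 dexamethasone pools of sorted mesenchyme, 3 collagens had 1 pool far above the others by Dixon's test, of 36 genes and groups tested; chance alone gives such a pool in about 1 of 20. Col15a1 was at 52.24 CPM in pool 3, where the other pools lay between 22.6 and 26.5 CPM. Pool 3 also had the highest chondrocyte marker sum of the treated pools, at 111 CPM, and its part was not tested. Col25a1 was at 356.2 CPM in pool 2, against 247 to 261 CPM in the rest. Col8a2 was at 6.798 CPM in pool 2 against 1.35 to 2.26 CPM, a level at which few reads decide the value.

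In the fit added after the data were seen, the log2 fold change of Col4a5 under dexamethasone in CD106+ cells minus that in mesenchyme was -3.35 (edgeR adjusted p = 0.00261). It rests on 1 treated CD106+ library, assumed to vary like the others, and the change in mesenchyme did not pass by itself (edgeR adjusted p = 0.0980). Sex cannot be told apart from treatment in the mesenchyme pools, and Col4a5 lies on X.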

How the results depend on the processing

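In mesenchyme, 0 collagens were called higher and 0 lower in the chosen fit. With no filter on low counts 1 was higher (Col4a5) and 1 lower (Col6a6), DESeq2 called 2 higher (Col4a1 and Col4a5, adjusted p = 0.0295 and 0.0445), and limma-voom called 1 lower (Col6a6, adjusted p = 0.0113). Leaving out each pool gave 0 higher and 0 to 1 lower, the 1 being Col6a6 without dexamethasone pool 3. With the replicate block, 0 and 0 collagens were called in mesenchyme and 15 and 4 between the CD106 fractions; pairing by number changed no call among them. Leaving out each CD106 library gave 14 to 15 higher and 1 to 5 lower, and 13 of the 15 higher and 1 of the 4 lower kept their call throughout. Col4a6 also lost its call with total counts (adjusted p = 0.0648) and DESeq2 (adjusted p = 0.0551). In the treated CD106+ library 5 collagens were higher with no minimum level, Col6a5 and Col10a1 being added, and 8 lower, Col8a2 and Col22a1 being added. The counts were 2 to 3 higher and 7 to 9 lower when set against 1 untreated library; without CD106+ library 1, Col1a2 and Col3a1 reached -1.06 and -1.06.

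Signs of uncalled changes reversed for these collagens named in the text. In mesenchyme Col5a2 went to -0.0277 with total counts and -0.15 with the chondrocyte covariate, and ranged from -0.0225 (without dexamethasone pool 2) to 0.11 with 1 pool left out. Col3a1 went to 0.000752 with the Xist and 0.00554 with the chondrocyte covariate, and ranged from -0.38 to 0.29 with 1 pool left out, being above 0 without dexamethasone pool 1 (0.03) or saline pool 2. Col15a1 went to 0.79 with the chondrocyte covariate and ranged from -0.95 to 0.31 with 1 pool left out, the highest without saline pool 1. With that covariate Col6a2 and Col6a3 went to -0.15 and -0.0108. In the treated CD106+ library, ratios against 1 untreated library ran from -0.33 to 0.40 for Col1a1, -0.12 to 0.78 for Col5a1, -0.58 to 0.39 for Col6a1, -0.55 to 0.56 for Col6a2 and -0.33 to 0.73 for Col6a3; TMM scaling put Col1a1, Col6a1 and Col6a2 at 0.19, 0.03 and 0.10, and the fit over 5 libraries gave the same signs. In single cells Col4a3, called lower, went to 0.18 without the Pecam1 cells, and Col3a1 to -0.0345 without cells under 500000 counts. The cause was not tested.

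A floor of 3 counts equals 0.421 to 1.80 CPM in bulk and 1.68 to 13.9 CPM in a cell, so collagens under these levels cannot be told from 0. With 2 libraries in an arm, changes of 2-fold were seldom recovered in simulation, and a collagen that did not pass is not shown to be unchanged.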
